A study of Mus musculus with 6 samples.

Results

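The genes examined here restrain or relay the cyclic AMP (cAMP) signal that sets the rate of lipolysis, the breakdown of stored triglyceride, in fat. They were chosen by name, with earlier results of these data known. Every probe set was taken whose single platform gene symbol is one of 8 listed genes, or an older alias of it. Of the 8 genes, 4 had such a probe set: Hcar1, Hcar2, Pde3b and Prkar2b, with 6 probe sets among 45037 on the array that are not controls. The other 4 listed genes, which are adrenergic and adenosine receptors, were not analysed here. In gene terms these are 4 of 18193 genes represented.

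Each of 6 male mice aged 10 weeks, on a mixed C57BL6;129Sv background, gave RNA from its epididymal white adipose tissue, the fat pad along the epididymis, to a single Affymetrix MOE430v2.0 array. In 3 mice 1 copy of Pparg was the allele called ldi (Pparg ldi/+), which the labels tie to lipodystrophy, and 3 litter-matched mice were wild type. Pparg encodes the nuclear receptor that drives fat cell differentiation. The comparison asks how transcripts of the fat pad differ when 1 Pparg allele is ldi. The labels name no promoter or Cre that would limit the allele to fat cells.

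In fat cells, receptors coupled to the G protein Gs raise cAMP through adenylyl cyclase, and receptors coupled to Gi lower it. cAMP releases the catalytic subunits of protein kinase A from its regulatory subunits, and the freed kinase phosphorylates hormone-sensitive lipase and the coat of the lipid droplet. Insulin opposes this by activating the phosphodiesterase that degrades cAMP. Hcar1 and Hcar2 encode Gi-coupled receptors for lactate and for 3-hydroxybutyrate and niacin, Pde3b encodes that insulin-activated phosphodiesterase, and Prkar2b encodes the regulatory subunit RIIβ of protein kinase A, which is abundant in fat.

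No upstream sequence was to hand for Hcar2 or Pde3b. Hcar1 showed the largest fall of the 4 genes, and the 250 bases before its start site are shown. They come from RefSeq, build GRCm38.p6, at chr5:123880004-123880253, minus strand, written 5′ to 3′ and ending just before the start site. The array files name no genome build.

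Hcar1 upstream: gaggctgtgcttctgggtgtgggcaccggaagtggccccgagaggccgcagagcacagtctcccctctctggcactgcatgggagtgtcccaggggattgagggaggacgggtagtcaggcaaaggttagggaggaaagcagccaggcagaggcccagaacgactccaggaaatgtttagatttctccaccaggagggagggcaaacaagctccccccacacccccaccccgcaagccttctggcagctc

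Its GC content was 62.4%, against a median of 52.4% over 32851 such windows of 250 bases. On either strand it held 0 matches to 2 copies of AGGTCA spaced by 1 base, the direct repeat bound by PPARG with RXR, which 0.033% of all windows held. It also held 0 matches to AGGTCA alone, which lies within that repeat (4607 of the 32851 windows), to TGACGTCA, the cAMP response element (1.55%), to its core TGACG (17.8%), to the C/EBP palindrome TTGCGCAA (0.16%) and to TATAAA (12.4%). No letters are in capitals for that reason. Upstream windows of Prkar2b, not shown, held 0 matches to the same letters. These counts describe exact letters in these windows only.

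Signals were scaled so that the arrays share a trimmed mean of 500, and differences were taken as log2 of the signal plus 32, which understates changes of dim genes. A gene is said to have risen or fallen where limma's Benjamini-Hochberg adjusted p over all 11201 genes tested was under 0.05. By that rule all 4 measured genes fell, where 16.4% of genes tested fell, 16.3% rose and 32.7% changed in either direction. Because the genes were chosen with earlier results known, setting them beside these shares is a description and not a test. The genotypes did not overlap in any of the 4, as in 47.6% of genes tested. All 6 of their probe sets fell in a fit of 22519 probe sets, where 14.5% fell, 14.5% rose and 29.0% changed either way. In all 6 the signals of the 3 Pparg ldi/+ arrays were lower than the 3 wild-type signals; 22.5% of probe sets showed this order, and in 44.4% the genotypes did not overlap. The median log2 difference of the 4 genes was -1.92, beside -0.0043 over all genes tested. All 4 passed the filter on dim genes, a mean log2 value of 7.46. Hcar2 lay below that level in Pparg ldi/+ (7.25) and passed through its wild-type value (9.16), so its presence among the tested genes rests on the difference itself. With no such filter all 4 fell as well. With Pparg ldi/+ replicate 3 as the only array of its genotype, the log2 differences were -2.85 for Hcar1, -2.12 for Hcar2, -2.18 for Pde3b and -0.52 for Prkar2b. On that array Hcar1 (log2 7.20) and Hcar2 (7.04) lay below 7.46, so their place in that fit rests on their wild-type signals.

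**Figure D1:**
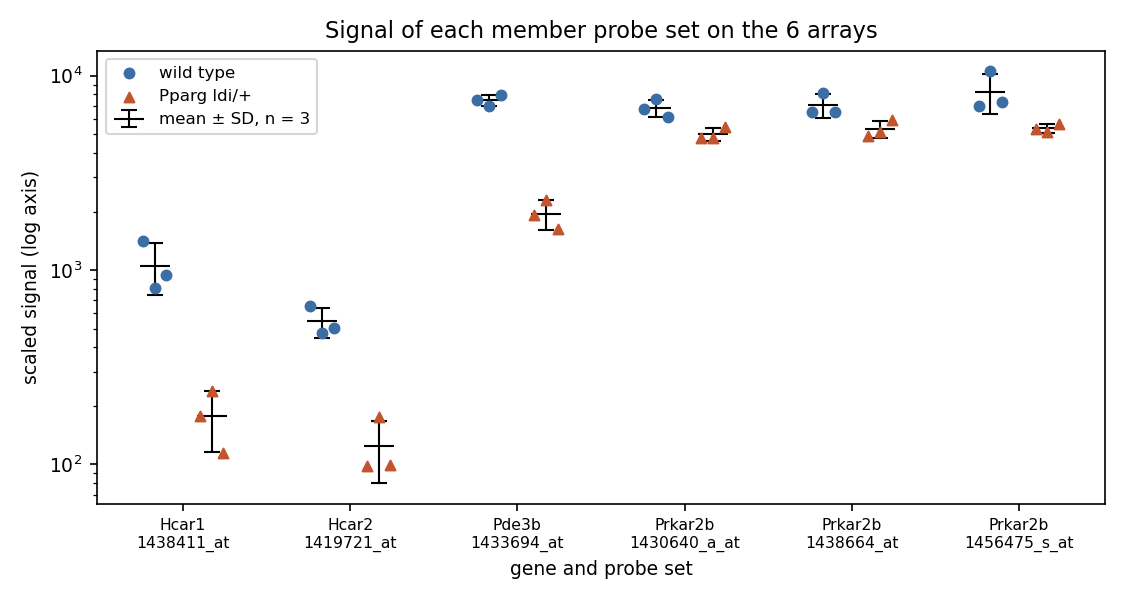
Scaled signal (log axis) of the 6 probe sets of Hcar1, Hcar2, Pde3b and Prkar2b, with a point for each array, and the mean ± SD of 3 arrays per genotype. In every probe set the Pparg ldi/+ arrays lie below the wild-type arrays, by a wide gap for Hcar1, Hcar2 and Pde3b and a narrow one for Prkar2b.

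Several facts of the whole series bear on these values. Pparg fell 2.56-fold (log2 -1.35, limma adjusted p = 1.04e-05). The position of its probes with respect to the altered part of the allele is unknown here. Arrays of the same genotype correlated at 0.971 to 0.981 across genes, and those of different genotype at 0.885 to 0.909. Adipocyte markers were present: their summed signal was 217988 to 243177 in wild type and 126628 to 143196 in Pparg ldi/+. Of 13 such markers with a probe set, 10 fell and 0 rose. Of 14 macrophage markers, 13 rose, and 0 fell. Their sums were 41779 to 52759 in wild type and 101524 to 104321 in Pparg ldi/+. Of 10 endothelial markers 8 fell, with sums of 21071 to 22842 in wild type and 9960 to 11686 in Pparg ldi/+, and of 8 mesothelial markers 5 fell. Of 10 lymphocyte markers with a probe set, 8 lay below the filter's level in wild type, and 3 were tested. Of the 3, Il7r and Cd79b rose. Cd79b passed the filter through its Pparg ldi/+ signal (247, against 84.6 in wild type), so its testing rests on the difference itself. The part of these cell types in the changes of pathway genes was not tested. Of 9 epididymal markers with a probe set, 7 lay below the filter's level in wild type, and 7 were tested. Lcn9, Cst11, Cst12 and Teddm2 passed the filter through Pparg ldi/+ replicates 1 and 2, so their testing rests on the difference itself. The summed signal of the 9 was 23076 and 31662 in those replicates. It was 654 in replicate 3 and 575 to 1186 in wild type. Results are therefore also given with replicate 3 as the only Pparg ldi/+ array, and the part of the epididymal transcripts in other values was not tested. The pad was measured whole, so fewer cells of a type and less RNA per cell cannot be told apart.

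Hcar1 was the most strongly reduced of the 4 genes. Its scaled signals were 1410, 808 and 948 on wild-type arrays 1 to 3 and 178, 238 and 115 on Pparg ldi/+ arrays 1 to 3. The lowest wild-type signal was 3.4 times the highest Pparg ldi/+ signal. The mean went from 1055 ± 315 (SD, n = 3) to 177 ± 61.2 (SD, n = 3), a log2 difference of -2.38 (SE 0.257, 95% confidence interval -2.97 to -1.80, limma adjusted p = 0.000193). That is 5.22-fold lower on the offset scale and 5.96-fold lower on plain signals. With Pparg ldi/+ replicate 3 alone, the difference was -2.85, in a fit where Hcar1 passed the filter through its wild-type signals. The Pparg ldi/+ array with the low epididymal sum thus had the lowest Hcar1 signal of the 6.

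Hcar2, the receptor through which niacin suppresses lipolysis and which some immune cells also express, fell as well. The wild-type arrays read 655, 476 and 506, and the Pparg ldi/+ arrays 98.1, 175 and 99.6. The Pparg ldi/+ arrays did not reach the wild-type range, and replicate 2 was the highest of them, as it was for Hcar1. The mean went from 546 ± 95.7 to 124 ± 43.7 (SD, n = 3 each), a log2 difference of -1.91 (SE 0.219, 95% confidence interval -2.41 to -1.41, limma adjusted p = 0.00027). The fall was 3.76-fold on the offset scale and 4.40-fold on plain signals. In the deposited, unscaled values the Pparg ldi/+ arrays read 43.3, 70.5 and 47.0 for Hcar2 and 78.5, 96.0 and 54.4 for Hcar1, beside medians of all probe sets of 59.2 to 69.4 per array. Without detection calls it is not known whether these low signals exceed background.

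The estimated fall of Hcar1 was the larger of the pair, but the design cannot separate them. On each array the log2 value of Hcar1 minus that of Hcar2 was 1.07, 0.72 and 0.87 on the wild-type arrays and 0.69, 0.38 and 0.16 on the Pparg ldi/+ arrays. The groups did not overlap, and their means differed by -0.47 (95% confidence interval -0.98 to 0.03). An exact two-sided permutation test returned p = 0.1, and no lower value is possible with 3 arrays a genotype. With replicate 3 alone the difference was -0.72.

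Hcar2 and Hcar1 lie next to each other on chromosome 5 in the gene order of RefSeq's GRCm38.p6, counting protein-coding genes with a probe set. Of the genes around the pair, the tested ones did not pass the threshold. Denr, beyond Hcar1, had a log2 difference of 0.12 (adjusted p = 0.383) and Rsrc2, further out beyond Hcar2, 0.05 (adjusted p = 0.686) in limma's fit. Kntc1, next to Hcar2, was too dim to be tested, with mean signals of 77.1 (wild type) and 106 (Pparg ldi/+).

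Pde3b, through which insulin lowers cAMP in fat cells, fell with the least relative scatter of the 3 large falls in wild type. The signals were 7451, 6956 and 7989 on the wild-type arrays against 1915, 2302 and 1623, so the groups stood 3.02-fold apart at their nearest arrays. The coefficient of variation in wild type was 6.92%, against 29.9% for Hcar1 and 17.5% for Hcar2. The mean went from 7465 ± 517 to 1947 ± 341 (SD, n = 3 each), with a log2 difference of -1.93 (SE 0.123, 95% confidence interval -2.21 to -1.65, limma adjusted p = 1.17e-05). In the ordering of all genes tested by log2 difference it was number 83 from the bottom. With replicate 3 alone the difference was -2.18 (limma adjusted p = 0.000167). Its tested neighbours on chromosome 7, Psma1 and Copb1, were at -0.06 and 0.11 and did not pass (adjusted p = 0.637 and 0.428).

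Prkar2b fell by less. On the probe set read for the gene, the one with the suffix _s_at, the signals were 6983, 10520 and 7309 in wild type and 5328, 5117 and 5669 in Pparg ldi/+. Wild-type array 2 stood above all others, and the groups were apart by 1.23-fold at their nearest arrays. The mean went from 8271 ± 1955 to 5371 ± 278 (SD, n = 3 each), a log2 difference of -0.60 (SE 0.143, 95% confidence interval -0.92 to -0.27, limma adjusted p = 0.0126).

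The other probe sets of Prkar2b gave smaller falls. On the set with the suffix _a_at the signals were 6741, 7555 and 6157 in wild type and 4788, 4785 and 5425 in Pparg ldi/+, and on the one with the plain suffix _at they were 6497, 8166 and 6463 against 4871, 5111 and 5925. In both the highest Pparg ldi/+ array, replicate 3, came within 1.13-fold and 1.09-fold of the lowest wild-type array. In the fit of all probe sets the log2 differences were -0.44 (adjusted p = 0.00681) and -0.40 (adjusted p = 0.0242), beside -0.60 (adjusted p = 0.0122) for the _s_at set in that fit. The _s_at and plain _at sets were designed from the same accession and are not independent. The call of Prkar2b ended with replicate 3 as the only Pparg ldi/+ array, at -0.52 (limma adjusted p = 0.187). A fit of 1 array against 3 assumes that the lone array varies like the others and calls fewer genes. Without wild-type array 2 the difference was -0.41 and still passed. On chromosome 12 its neighbour Hbp1 was at 0.12 and did not pass, while Pik3cg on the other side rose, at 0.98 (limma adjusted p = 0.00133). Pik3cg encodes a phosphoinositide 3-kinase subunit prominent in leukocytes.

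The 4 genes were also set against the adipocyte markers of their own arrays. The mean log2 value of the 13 markers was lower in Pparg ldi/+ by 1.40, 1.23 and 1.44 on arrays 1 to 3 relative to the wild-type mean, so that its change was -1.35 ± 0.111 (SD, n = 3). Relative to that marker mean, Hcar1 was at -0.94, -0.75 and -1.41, and Pde3b at -0.55, -0.45 and -0.74 on the Pparg ldi/+ arrays. Hcar2 was at -0.74, -0.24 and -0.69. Prkar2b went the other way, at 0.79, 0.56 and 0.92. In all 4 the Pparg ldi/+ values lay outside the wild-type range, and the exact two-sided permutation test returned p = 0.1 for each, the lowest possible (0.1 after adjustment over the 4). The wild-type SD was 0.347 for Hcar1, 0.173 for Hcar2, 0.153 for Pde3b and 0.345 for Prkar2b. The markers themselves differed widely, so the marker mean depends on which are taken. Acvr1c, Retn and Cidec, 3 of the 13, had lower log2 differences than Pde3b and Hcar2, while the very bright Fabp4, Lpl and Cd36 were at -0.15, -0.17 and -0.21. For Fabp4 that value is from its brightest probe set; its other 3 sets fell, at -0.27, -1.19 and -1.83 in the fit of all probe sets. The part of marker loss in the falls was not tested.

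**Figure D2:**
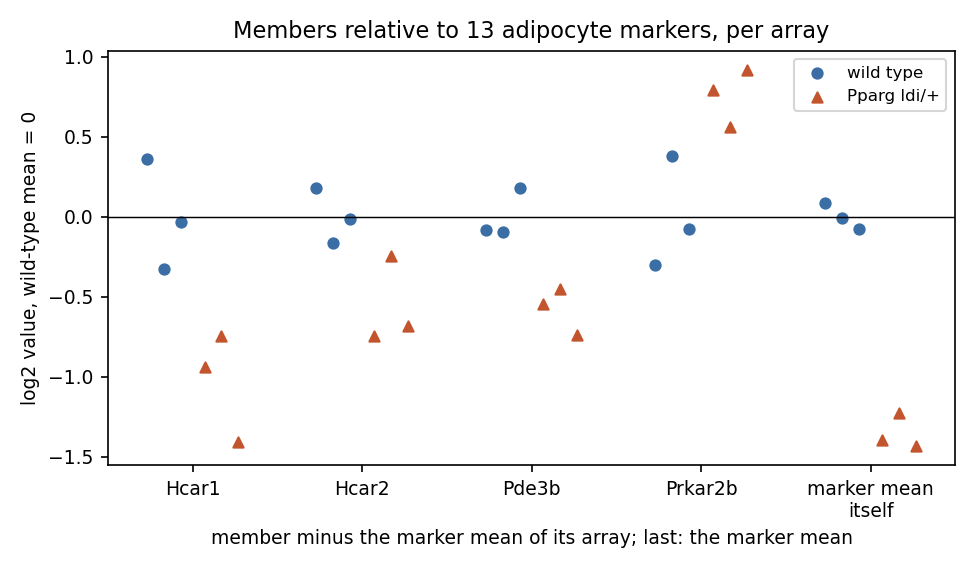
Log2 value of each gene minus the mean log2 value of 13 adipocyte markers on the same array, with the wild-type mean set to 0, and at the right the marker mean itself. On the Pparg ldi/+ arrays Hcar1, Hcar2 and Pde3b lie below the wild-type points, Prkar2b lies above them, and the marker mean lies at -1.44 to -1.23.

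Genes whose profile over the 6 arrays was nearest to each of the 4 were found by the root mean square distance between log2 values, each taken relative to its wild-type mean. Nearest to Hcar1 was Adcy5, an adenylyl cyclase gene (distance 0.26, log2 difference -2.46), followed by Olfml1 (0.27). Nearest to Hcar2 were Proca1 (0.14) and Vnn3 (0.14). Nearest to Pde3b were Tmem88b (0.08) and Fmo1 (0.10), a flavin-containing monooxygenase gene. Nearest to Prkar2b were Slc9a3r2 (0.08) and Diras2 (0.09). Diras2, with a log2 difference of -0.58, did not pass the threshold (limma adjusted p = 0.0716). The distances cover 6 arrays of which 3 share a genotype, and so mostly measure how alike the genotype differences are.

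Beyond the 4 genes, lists of other genes of this pathway, also chosen with earlier results known, were counted. No list was tested as a set, and the count of each is to be read beside the shares over all genes tested. Of 124 listed genes, 111 had a probe set and 82 were bright enough to be tested. Of the 82, 28 fell and 13 rose, with a median log2 difference of -0.16. With Pparg ldi/+ replicate 3 alone, 22 of 83 fell and 7 rose. Over all genes tested, 16.4% fell and 16.3% rose with the 3 arrays, and 7.94% fell and 6.54% rose with replicate 3 alone.

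The other Gi-coupled receptors that could be tested fell, like Hcar1 and Hcar2. Of 7 with a probe set 4 were tested, all 4 fell, and their median was -2.65. With replicate 3 alone 5 of 5 fell, Cnr1 being the fifth, with a median of -2.67. The dim Npy1r overlapped between genotypes, and the dim Adora3 read 50.4 ± 26.7 in wild type against 79.9 ± 8.87 (SD, n = 3 each). Ptger3, a prostaglandin E2 receptor, had signals of 2899, 3825 and 1986 in wild type and 163, 225 and 184 in Pparg ldi/+, with wide separation in every array (log2 -3.68, SE 0.219, adjusted p = 8.75e-06). Ffar4, a receptor of long-chain fatty acids, went from 1035 ± 2.95 to 141 ± 8.08 (SD, n = 3 each; log2 -2.62, adjusted p = 2.19e-06). Like Hcar2, it lay below the filter's level in Pparg ldi/+ and was tested through its wild-type signal. Ffar2, which senses short-chain fatty acids, fell by 2.46 on the log2 scale (adjusted p = 4.37e-06). Sucnr1, the succinate receptor, fell by 2.68 (adjusted p = 0.000128). The cannabinoid receptor gene Cnr1 was too dim to be tested over the 6 arrays, with signals of 202 to 308 in wild type and 28.4 to 68.1 in Pparg ldi/+. In the fit with replicate 3 alone it passed the filter through its wild-type signal and fell by 2.29.

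Among Gs-coupled receptors 2 of 4 tested fell and 1 rose, with a median of -0.42. Mc2r, the corticotropin receptor, fell by 1.15 (adjusted p = 0.000148) and Tshr, the thyrotropin receptor, by 0.92 (adjusted p = 0.000245). Ptger4, a prostaglandin E2 receptor that raises cAMP, rose by 1.09, with signals of 784, 641 and 732 in wild type and 1773, 1188 and 1794 in Pparg ldi/+ (adjusted p = 0.00117). The prostaglandin E2 receptors thus differed in direction, since Ptger3 fell and Ptger2, at 0.07, did not pass. The other adrenergic receptors with a probe set, Adra1b and Adra2c, were too dim to be tested.

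Adenylyl cyclases make cAMP. From 7 genes tested there were 2 falls and 1 rise, with a median of -0.31. Adcy5 had signals of 2001, 1686 and 1892 in wild type and 293, 353 and 293 in Pparg ldi/+ (log2 -2.46, SE 0.114, adjusted p = 2.73e-06). Adcy6 fell 2.06-fold (adjusted p = 8.2e-05). Adcy7 rose 1.96-fold, from 1224 ± 59.8 to 2433 ± 161 (SD, n = 3 each; adjusted p = 6.35e-05). Macrophage markers rose in the same arrays, and their part in the rise of Adcy7 was not tested.

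The G protein genes between receptors and cyclases showed no common direction. Of 11 tested, 3 fell and 4 rose, with a median of 0.05. Gnai1, an inhibitory alpha subunit, fell 1.77-fold, from 10117 ± 364 to 5691 ± 346 (SD, n = 3 each; adjusted p = 5.41e-05), while Gnai2, another inhibitory alpha subunit, rose by 0.21 (adjusted p = 0.026). Gnas, the stimulatory alpha subunit, fell by 0.20 (adjusted p = 0.033). The largest rises were Gng12, a gamma subunit, at 1.99 (adjusted p = 1.4e-05) and Gnao1 at 1.86 (adjusted p = 0.000565). With replicate 3 alone 1 of the 11 fell and 2 rose, and the calls of Gnai2 and Gnas ended. Of 6 genes that dampen receptor signalling, 3 rose and 1 fell, with a median of 0.20. Rgs2, a regulator of G protein signalling, rose 1.85-fold (adjusted p = 0.000214), Arrb2, a beta-arrestin, 1.79-fold (adjusted p = 0.000796) and Grk3, a receptor kinase, 1.47-fold (adjusted p = 0.0102). The other 2 probe sets of Grk3 were at -0.02 and 0.08 and did not pass, and its call ended with replicate 3 alone, at 0.38.

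Among the other phosphodiesterases the lowest log2 difference was that of Pde1a. Of 9 tested, 3 fell and 2 rose, with a median of -0.33. Pde1a fell by 1.17 (adjusted p = 0.000968) and the cAMP-specific Pde4d fell from 364 ± 88.6 to 166 ± 46.9 (SD, n = 3 each; adjusted p = 0.00897), while Pde1b rose by 0.81 (adjusted p = 0.00159). The nearest relative of Pde3b, Pde3a, was too dim to be tested, at 124 ± 39.2 against 93.3 ± 46.0 (SD, n = 3 each).

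Prkar2b was the only protein kinase A subunit gene of 6 tested that passed the threshold. The other 5 had a median of 0.11, and 0 of them passed by limma's test, with 1 (Prkacb) at an unadjusted p under 0.05. Prkaca and Prkacb, the catalytic subunits, were at 0.11 (95% confidence interval -0.04 to 0.27, adjusted p = 0.243) and 0.26 (0.03 to 0.49, adjusted p = 0.0819). Prkar2a, the related regulatory subunit, was at -0.12 (-0.33 to 0.09, adjusted p = 0.356). Whether Prkar2b differed from these was not tested. Of 12 kinase inhibitors and anchoring proteins, 2 fell and 1 rose, where 32.7% of all genes tested changed in either direction. Akap12, an anchoring protein that binds beta-adrenergic receptors, was at -0.87 (adjusted p = 0.00114). Akap7 was at -0.34 (adjusted p = 0.0345), and Akap13 at 0.24 (adjusted p = 0.0436). Both calls ended with replicate 3 alone, at -0.38 and 0.26. In limma's fit of all probe sets no set of Akap13 passed. The set read for the gene had an adjusted p of 0.0555 there, and its other tested sets were at -0.21, 0.13 and -0.08.

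Further along the pathway, 3 of 11 other cAMP effectors and CREB targets fell and 1 rose, where 32.7% of all genes tested changed in either direction. Sik2, a kinase that protein kinase A phosphorylates in fat cells, fell 2.64-fold, with signals of 8166, 8214 and 9580 in wild type and 3178, 3480 and 3090 in Pparg ldi/+ (adjusted p = 1.04e-05). Popdc2, a cAMP-binding membrane protein, fell by 1.08 and Rapgef3, the cAMP-activated exchange factor Epac1, by 0.88 (adjusted p = 0.000497 and 0.00136). Of 7 genes listed as lipolytic effectors or their regulators 5 fell, with a median of -0.94. The 5 include G0s2, an inhibitor of triglyceride lipase, whose own value is that median. Pnpla2 is also among them, but its tested probe sets differed in direction. In the fit of all probe sets, a set of Pnpla2 fell, at -0.39, while another was at 0.40 and did not pass. Lipe, hormone-sensitive lipase, fell 3.04-fold (adjusted p = 4.54e-06), Mgll, which cleaves monoglyceride, 1.95-fold (adjusted p = 4.22e-05) and Aqp7, the glycerol channel, 2.15-fold (adjusted p = 0.000588). Of 6 tested genes of cyclic GMP signalling (natriuretic peptide receptors, a cyclic GMP-dependent kinase and guanylyl cyclase subunits), 3 fell and 0 rose. The falls were 2.32-fold for Npr2 (adjusted p = 0.000125), 1.58-fold for the clearance receptor Npr3 (adjusted p = 0.00112) and 1.54-fold for Npr1 (adjusted p = 0.0287). The call of Npr1 ended with replicate 3 alone. All of these adjusted p come from limma's fit over 11201 genes.

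**Figure D3:**
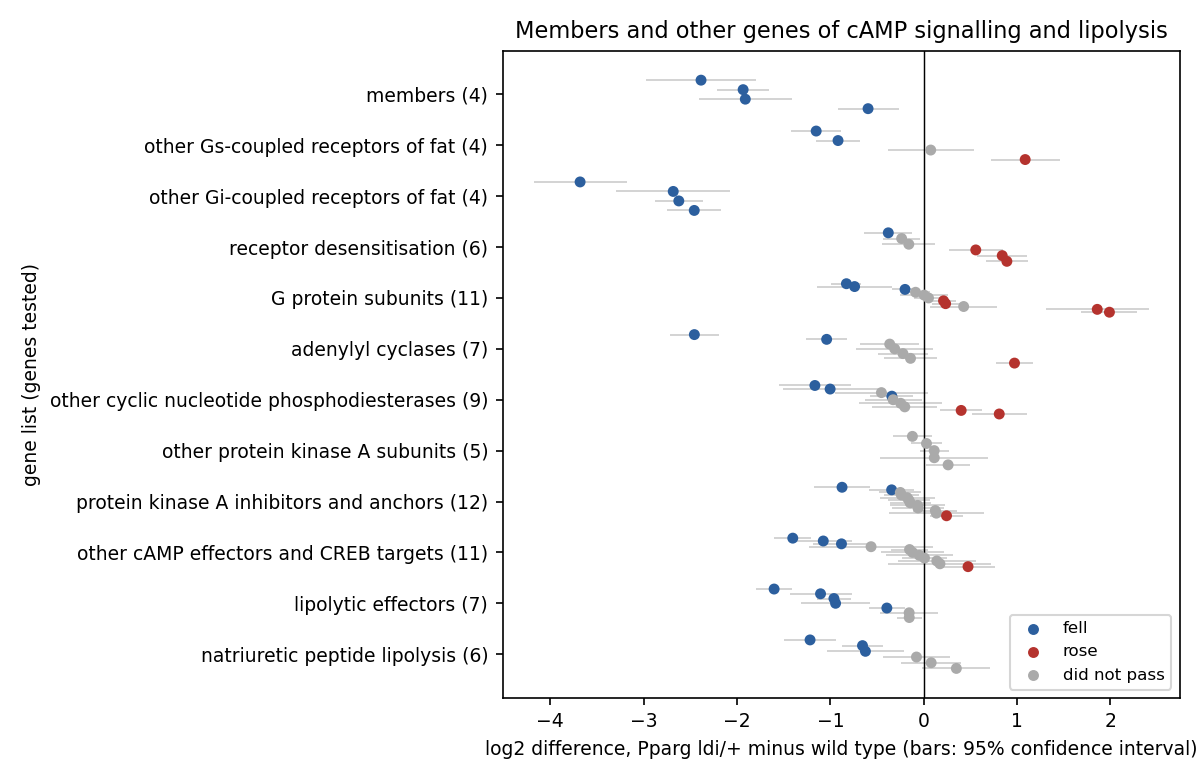
Log2 difference (Pparg ldi/+ minus wild type) of each tested gene by list, with the number of genes tested after each list's name and bars for the 95% confidence interval. Colours mark genes that fell, rose or did not pass adjusted p under 0.05. The 4 tested genes of other Gi-coupled receptors lie at -2.46 and below, and the 5 other protein kinase A subunits lie between -0.12 and 0.26.

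No nerve marker passed the threshold. Of 10 markers of sympathetic nerves, whose noradrenaline drives lipolysis in fat, 4 were bright enough to be tested and 0 passed by limma's test, also at an unadjusted p under 0.05. Their summed signal was 1233 to 1348 in wild type and 1014 to 1352 in Pparg ldi/+, so the groups overlapped. Th, the gene of the first enzyme of noradrenaline synthesis, was among the markers too dim to be tested, at 79.0 (wild type) and 92.8 (Pparg ldi/+). The 4 tested were dim as well, with mean signals of 152 to 313 in wild type and 161 to 244 in Pparg ldi/+. Markers this dim in both genotypes cannot show whether nerve supply differed.

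**Figure D4:**
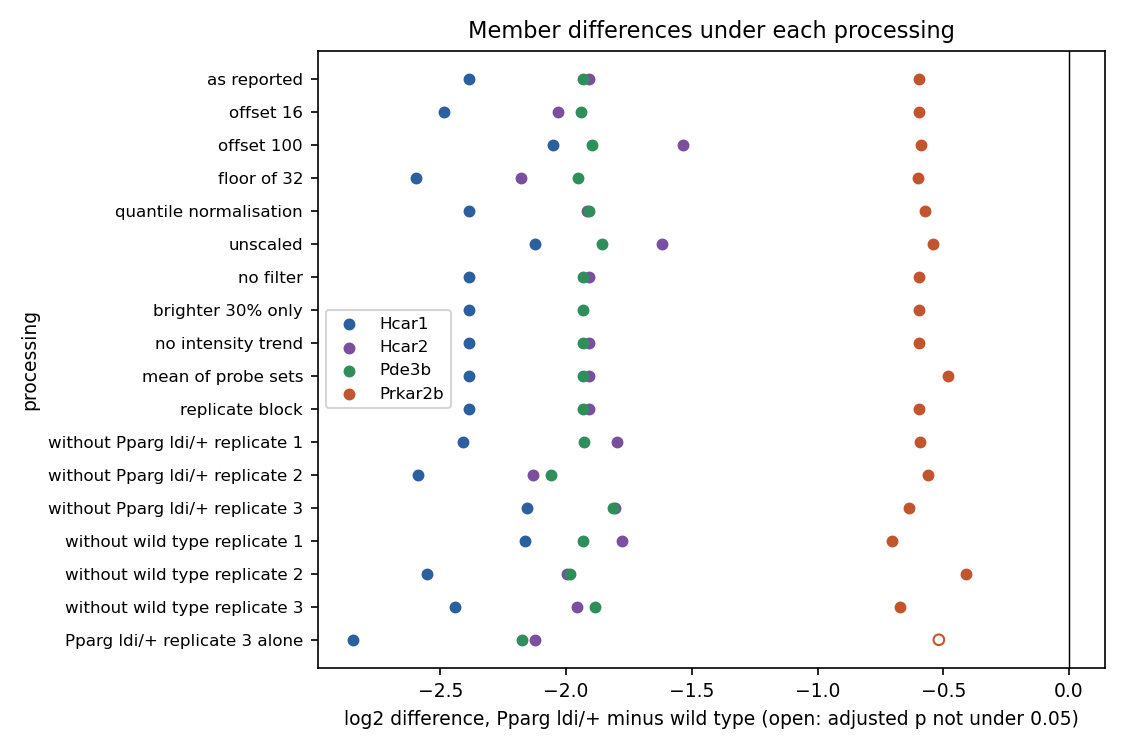
Log2 difference of Hcar1, Hcar2, Pde3b and Prkar2b under the reported processing and each alternative, with filled points where the adjusted p was under 0.05 and open points where it was not. All points lie below 0, and the only open one is Prkar2b with Pparg ldi/+ replicate 3 alone.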

How the data were processed

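RNA of single mice was hybridised to 6 arrays, 3 per genotype. Per the submitters' processing notes, MAS5 made the deposited intensity values, linear signals per probe set; MAS5 is listed for only 2 of the 6 samples, and neither version, target value nor presence calls were to hand. Arrays were brought to a common 2% trimmed mean of 500 (factors 2.12 to 2.49), and log2 was taken after adding 32. Of 45101 probe sets 64 controls were left out, and 34945 of the rest had a single gene symbol, updated through RefSeq (GRCm38.p6) for 34741. A gene was read from its brightest probe set, without x_at sets where another existed. Genes with a mean log2 below 7.46 were not tested. The fit used limma 3.58.1 under R 4.3.3 (lmFit, eBayes with trend, two-sided, Benjamini-Hochberg). Precision is limited by the number of arrays. The method was tested on simulated data. The genes and lists were chosen with earlier results of these data known. Named from each list were the 3 tested genes of smallest p, and for each of the 4 genes the 2 nearest profiles; others named were chosen after their values were seen. A planned contrast with genes not reported here was not run. Same-numbered arrays of the 2 genotypes did not deviate together, and the numbers were not used as a pairing. Alternatives changed the offset, scaling, filter, variance model, probe set rule, threshold and arrays.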

Additional observations from a re-analysis of the deposited data

How the results depend on the processing

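Hcar1, Hcar2 and Pde3b fell in every alternative that tested them, at -2.85 to -2.05, -2.18 to -1.53 and -2.18 to -1.81; Hcar2 was too dim for the fit of the brighter 30% of probe sets. Prkar2b did not pass with Pparg ldi/+ replicate 3 alone, at -0.52, nor would its adjusted p of 0.0126 pass a threshold of 0.01; it passed in the other alternatives. Leaving out 1 array at a time gave -2.59 to -2.15 for Hcar1, -2.13 to -1.78 for Hcar2 and -2.06 to -1.81 for Pde3b, all past the threshold. Prkar2b, at -0.71 to -0.41, also passed, but narrowly without Pparg ldi/+ replicate 1 or 2 (limma adjusted p = 0.0434 and 0.0410). With replicate 3 alone, 1616 genes and 2726 probe sets passed where 3668 and 6531 did, and the difference between the changes of Hcar1 and Hcar2 was -0.72; at a threshold of 0.01, 2238 and 3913 passed. Leaving out 1 array gave 2737 to 3346 genes. The title's number as a replicate block gave 3166 genes and changed no call of the 4, with adjusted p of 0.00104 for Hcar1 and 0.0239 for Prkar2b; same-numbered arrays deviated from their group means with correlations of -0.13, -0.09 and -0.09, so no pairing is shown. Unscaled values called 1792 genes higher and 1331 lower, where scaled values called 1831 and 1837. The low signals of Hcar1 and Hcar2 in Pparg ldi/+ make their folds depend on the offset.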
